A study of Mus musculus with 32 samples.

Results

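The regions described here are sites of open chromatin in mouse liver that were listed after dexamethasone but not after vehicle, and at which the glucocorticoid receptor (GR) itself was not found. They were chosen by position: a unique interval of the DNase I hypersensitive site (DHS) list from dexamethasone livers was taken when it shared no base with any DHS of vehicle livers and none with any GR peak. This left 13288 of 63470 unique dexamethasone DHS, or 20.9% (95% Wilson interval 20.6 to 21.3). They made up 88.1% (87.6 to 88.6) of the 15076 DHS absent from the vehicle list, and the other 1788 held a GR peak. They are called GR-free dex-only DHS below. The vehicle DHS list and the GR list chose them, so these counts describe the choice and test nothing.

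The livers came from male C57BL/6 mice of 8 weeks, all adrenalectomized. They received by intraperitoneal injection dexamethasone bound to cyclodextrin (1 mg/kg in 300 ul saline) or cyclodextrin alone, and the liver was examined 1 h later. DNase-seq, GR ChIP-seq and C/EBPβ ChIP-seq each had 2 samples for dexamethasone and 2 for vehicle, but every deposited list is a single set of mm9 intervals per assay and condition, with no height, count or replicate column. The single GR list names no condition. Sequencing depth is therefore unknown, and a difference between conditions has no replicate check. Whole liver was used, so a site open in more cells and a site more open in each cell cannot be told apart.

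DNase I cuts DNA where nucleosomes are displaced or loosened, so its hypersensitive sites mark enhancers and promoters that proteins can reach. GR is a nuclear receptor that enters the nucleus when it binds a glucocorticoid such as dexamethasone, and it binds both to chromatin that was already open and to sites that open with hormone. C/EBPβ is a leucine zipper factor of hepatocytes that binds many liver enhancers. Adrenal glands make most of an animal's glucocorticoid, so their removal lowers the level before the injection. The C/EBPβ lists and the distance to GR peaks beyond overlap did not choose the regions, and most comparisons below rest on them. The sequences of these regions are not shown and no gene is assigned to them, since no mm9 genome or annotation was used here.

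Of the GR-free dex-only DHS, 222 had a vehicle DHS within 50 bp, and 261 shared DHS without GR missed the choice because they shared 50 bp or less with vehicle DHS. The 3 regions just inside were chrX:34302665-34302815, which touched a vehicle DHS without sharing a base, and chr13:112727702-112728325 and chr19:27728951-27729101, each 1 bp away. Just outside lay chr1:51951336-51951486, chr13:94541243-94541786 and chr4:8855713-8855863, each of which shared 1 bp with a vehicle DHS. Towards GR the edge was nearly empty: 1 region had a GR peak within 50 bp, the smallest gap was 23 bp, and 1773 of the 1788 dex-only DHS with GR held a whole GR peak. The median gap to a vehicle DHS was 6003 bp (quartiles 1420 and 19840.5 bp), with 20.02% (19.3 to 20.7) within 1 kb, 60.3% (59.5 to 61.2) within 10 kb and 94.7% within 100 kb. GR-free vehicle-only DHS, defined below, had a like gap to the dexamethasone list (median 5161 bp, 63.4% within 10 kb).

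GR-free dex-only DHS were narrow. Their median width was 461 bp (quartiles 370 and 544 bp), against 618 bp for dex-only DHS with GR and 600 bp for shared DHS without GR. The class most like them in width was its mirror image, the 8475 DHS of the vehicle list that shared no base with a dexamethasone DHS or a GR peak (GR-free vehicle-only DHS below), with a median of 453 bp. Only 92 regions (0.692%) were wider than 1000 bp, against 4.75% of dex-only DHS with GR and 8.50% of shared DHS without GR. A pair of fixed widths recurred: 367 regions were exactly 150 bp wide, and 448 shared a single width just above 250 bp. Among the GR-free DHS of the dexamethasone list, the dex-only share was 54.0% at widths of 150 to 299 bp and 3.20% at 800 bp and over. In the vehicle list the vehicle-only share went from 46.4% to 1.14% over the same classes, so narrow intervals were more often specific to 1 list in either condition.

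**Figure D1:**
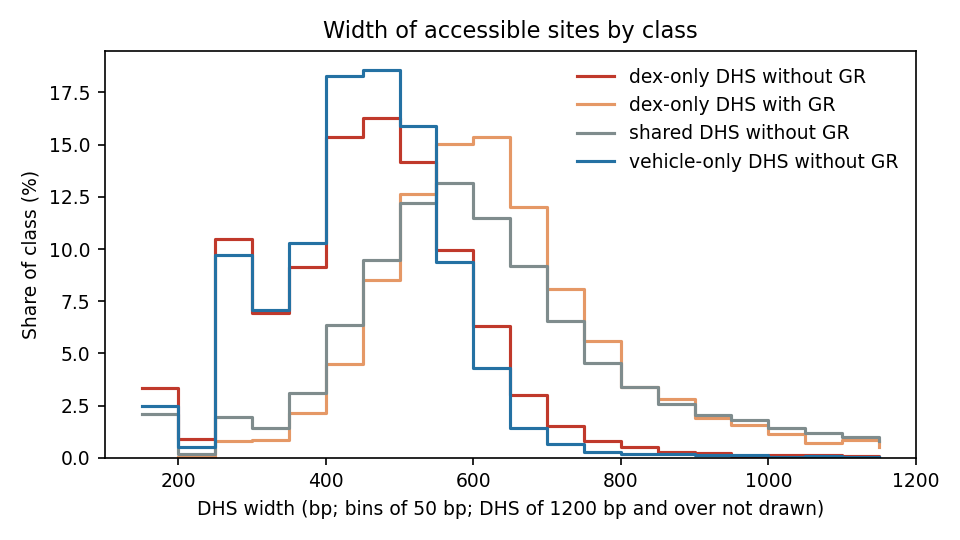
Width of DHS (bp, bins of 50 bp) as a share of each class in percent, for GR-free dex-only DHS, dex-only DHS with GR, shared DHS without GR and GR-free vehicle-only DHS. The list-specific classes without GR peak between 400 and 550 bp, while the other 2 lie further right; DHS of 1200 bp and over (32 GR-free dex-only DHS and 1624 shared DHS without GR among them) are not drawn.

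C/EBPβ was found at few of these sites. After dexamethasone, C/EBPβ peaks were listed in 1145 of them (8.62%, 8.15 to 9.11), where 31.8% of all dexamethasone DHS had one. In vehicle livers C/EBPβ was listed at 832 (6.26%, 5.86 to 6.69), against 28% of all dexamethasone DHS. At 12070 (90.8%) C/EBPβ was in neither list. The sites with C/EBPβ were thus a small minority, and most of them carried it in both conditions. Both lists had C/EBPβ at 759 regions (5.71%, 5.33 to 6.12; 26% of all dexamethasone DHS). At these 759 regions C/EBPβ was already listed in vehicle livers although the region was not in the vehicle DHS list. C/EBPβ in the dexamethasone list alone marked 386 (2.90%, 2.63 to 3.20; 5.8% of all dexamethasone DHS) and in the vehicle list alone 73 (0.549%, 0.437 to 0.690; 1.95%). At most 2 C/EBPβ peaks of the dexamethasone list lay in a region, and 11 regions held 2.

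Shared DHS without GR held C/EBPβ far more often. The dexamethasone C/EBPβ list marked 29.3% of these 39592 DHS, a difference of -20.7 percentage points for GR-free dex-only DHS (95% Newcombe interval -21.3 to -20.02), with an odds ratio of 0.228 (Woolf interval 0.213 to 0.243). Stratified by width in 10 classes, it was 0.344 (Mantel-Haenszel, 0.321 to 0.368), and the share was lower in the GR-free dex-only DHS on 21 of 21 chromosomes. The gap was thus smaller, but still present, among DHS of like width. With DHS above the median width of their list, the ratios were 0.512 (0.480 to 0.547) and, within strata, 0.594 (0.554 to 0.637). That setting drops narrow vehicle DHS and so turns some shared DHS into dex-only ones. Here and below, its values thus describe other regions. For C/EBPβ of the dexamethasone list alone the direction depended on width: the odds ratio was 0.570 (0.510 to 0.636) without strata and 1.17 (1.03 to 1.32) with them. The second value went to 0.964 (0.852 to 1.09) when intervals within 500 bp counted as overlapping and to 1.00 with DHS above the median width.

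Against dex-only DHS that did hold GR, the gap was wider for C/EBPβ listed after hormone alone than for C/EBPβ of both lists. That class had C/EBPβ of the dexamethasone list only at 20.8% of sites, and the odds ratio for GR-free against GR-bound dex-only DHS was 0.114 (0.0978 to 0.133), or 0.196 (0.165 to 0.234) within width strata. With DHS above the median width it was 0.239 (0.208 to 0.276). For C/EBPβ present in both lists the 2 classes were closer, at 5.71% and 9.004%, with an odds ratio of 0.612 (0.513 to 0.731) and of 0.674 (0.555 to 0.819) within strata. The share with C/EBPβ of both lists was lower in the GR-free class on 19 of 20 chromosomes.

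The mirror class was much closer in C/EBPβ. Of GR-free vehicle-only DHS, 10.9% (10.2 to 11.6) held a peak of the C/EBPβ list of their own condition (31.1% of all vehicle DHS did), so the share of GR-free dex-only DHS differed by -2.26 points (-3.09 to -1.45). The odds ratio of GR-free dex-only against vehicle-only DHS was 0.772 (0.705 to 0.846) and 0.765 (0.697 to 0.839) within width strata, with the lower share on the dex-only side on 15 of 20 chromosomes. For C/EBPβ of the own list alone the shares were 2.90% and 3.89% (2.63% of all vehicle DHS), an odds ratio of 0.738 (0.636 to 0.858). The last ratio was 1.16 (0.993 to 1.36) when DHS above the median width were used and 0.882 (0.763 to 1.02) with the dexamethasone list shortened to the length of the vehicle list, so its direction was not stable. C/EBPβ of both lists was at 5.71% and 6.99% (28.5% of all vehicle DHS), an odds ratio of 0.807 (0.722 to 0.901). C/EBPβ of the other condition's list was at 6.26% of GR-free dex-only DHS and 7.69% of vehicle-only DHS (33.7% of all vehicle DHS). For the other list alone the shares were 0.549% and 0.708% (5.22% of all vehicle DHS). That odds ratio was 0.775 (0.550 to 1.09), an interval that included 1.

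**Figure D2:**
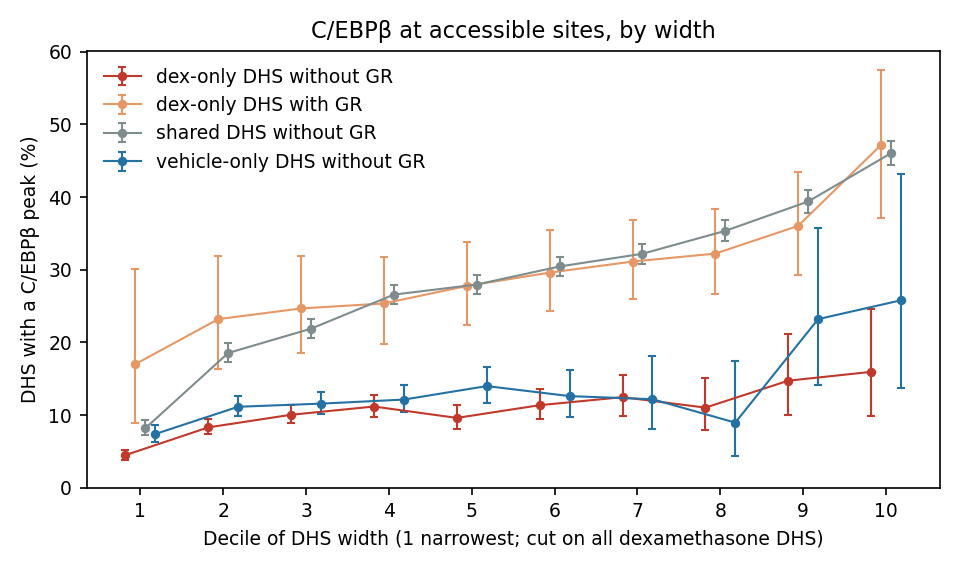
Share of DHS with a C/EBPβ peak of their own condition (percent, bars are 95% Wilson intervals) by decile of DHS width, for 4 classes of DHS; the vehicle-only class is set against the vehicle C/EBPβ list. GR-free dex-only DHS go from 4.50% in the narrowest decile to 15.96% in the widest, while shared DHS without GR go from 8.20% to 46.0%.

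Where C/EBPβ was present it sat near the middle of the site. The centre of a C/EBPβ peak found in both lists was a median of 34 bp (quartiles 15.5 and 68 bp) from the centre of the GR-free dex-only DHS, and 87.2% of 763 such peaks lay within 100 bp. Peaks of the dexamethasone list alone were a median of 39.5 bp away, with 85.5% of 393 within 100 bp. The mirror class had medians of 35.5 bp (both lists) and 31 bp (vehicle list alone). In shared DHS without GR the medians were 50 and 84 bp, in DHS that were also wider.

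GR-free dex-only DHS lay closer to GR peaks than their mirror class did. The median gap to the nearest GR peak was 54460.5 bp (95% interval 51838 to 56924) for GR-free dex-only DHS and 65494 bp (62220 to 68719) for vehicle-only DHS. Shared DHS without GR had a shorter median gap than both, 47902.5 bp (46803 to 49168). A GR peak lay within 1 kb of 699 GR-free dex-only DHS (5.26%, 4.89 to 5.65; 4.44% of all dexamethasone DHS without GR) and of 178 vehicle-only DHS (2.10%, 1.82 to 2.43; 4.31% of all vehicle DHS without GR). The difference was 3.16 points (2.67 to 3.64) and was positive on 19 of 20 chromosomes. Within 10 kb the shares were 24.3% (23.6% of all dexamethasone DHS without GR) and 17.6% (22.8% of all vehicle DHS without GR). The difference was 6.77 points (5.67 to 7.85), again positive on 19 of 20 chromosomes. The GR-free dex-only share within 10 kb was thus near that of all dexamethasone DHS without GR. The vehicle-only share was below that of all vehicle DHS without GR. Both differences kept their sign, with intervals that did not include 0, in each of the 8 alternatives, down to 1.16 points (0.857 to 1.45) for 1 kb when intervals within 500 bp counted as overlapping. Set against shared DHS without GR, the excess was smaller: 1.09 points (0.672 to 1.53) within 1 kb and 0.987 points (0.152 to 1.83) within 10 kb, and -3.74 points (-4.69 to -2.79) within 100 kb. The shares within 100 kb were 61.2% for GR-free dex-only DHS (64% of all dexamethasone DHS without GR), 64.9% for shared DHS without GR and 59.0% for vehicle-only DHS (64.2% of all vehicle DHS without GR).

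Counted by distance, GR-free dex-only DHS outnumbered GR-free vehicle-only DHS most steeply beside GR. In the whole lists there were 1.57 GR-free dex-only DHS for each GR-free vehicle-only DHS (1.53 to 1.61). With a GR peak within 1 kb the ratio was 3.93 (699 to 178, interval 3.33 to 4.63), from 1 to 10 kb 1.93 (1.81 to 2.07), from 10 to 100 kb 1.39 (1.33 to 1.46) and beyond 100 kb 1.48 (1.42 to 1.55). In finer steps the ratio was 4.49 from 250 to 500 bp, 2.50 from 1 to 2 kb, 1.67 from 5 to 10 kb and 1.33 from 20 to 50 kb. It was 1.61 (1.48 to 1.76) beyond 500 kb. The overall ratio of 1.57 was 0.907 (0.883 to 0.933) when the narrowest dexamethasone DHS were left out until that list was as long as the vehicle list, which changes length and width together. The ratio within 1 kb was 2.11 (1.803 to 2.47) there, 1.85 (1.55 to 2.21) with DHS above the median width and 1.88 (1.70 to 2.08) with all intervals set to 300 bp. The overall ratio was 1.219 (1.176 to 1.264) above the median width and 1.498 (1.461 to 1.537) at 300 bp. In both settings the ratio within 1 kb was thus above the ratio at all distances, but much less so than in the whole lists. Leaving out narrow vehicle DHS turns some shared DHS into dex-only ones, and trimming changes which intervals overlap. Both settings thus describe other regions and do not recheck the same ones. When intervals within 500 bp counted as overlapping, the ratio within 1 kb was 4.74 (3.402 to 6.599), with an overall ratio of 1.57.

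The gradient had a component on each side. Among vehicle DHS without GR, 17.6% in all were vehicle-only, with 8.60% (7.47 to 9.88) where GR lay within 1 kb, 14.7% from 1 to 10 kb, 17.7% from 10 to 100 kb and 20.2% (19.6 to 20.8) beyond. Among dexamethasone DHS without GR, 25.1% in all were dex-only, with 29.7% (27.9 to 31.6) within 1 kb, 25.03% (24.2 to 25.9) from 1 to 10 kb, 22.9% (22.4 to 23.5) from 10 to 100 kb and 27.1% (26.5 to 27.7) beyond. The vehicle-only share was thus lower near GR, while the dex-only share was above its overall value within 1 kb and beyond 100 kb and had no single direction with distance. The step nearest to GR rests on intervals of a fixed width. Of the 65 GR-free dex-only DHS within 250 bp of GR, 46 were exactly 150 bp wide, and the ratio of 13 (65 to 5) was 4.50 (18 to 4, interval 1.60 to 12.7) without the DHS of both recurring widths. Within 1 kb the ratio without those widths was 3.42 (2.88 to 4.05).

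**Figure D3:**
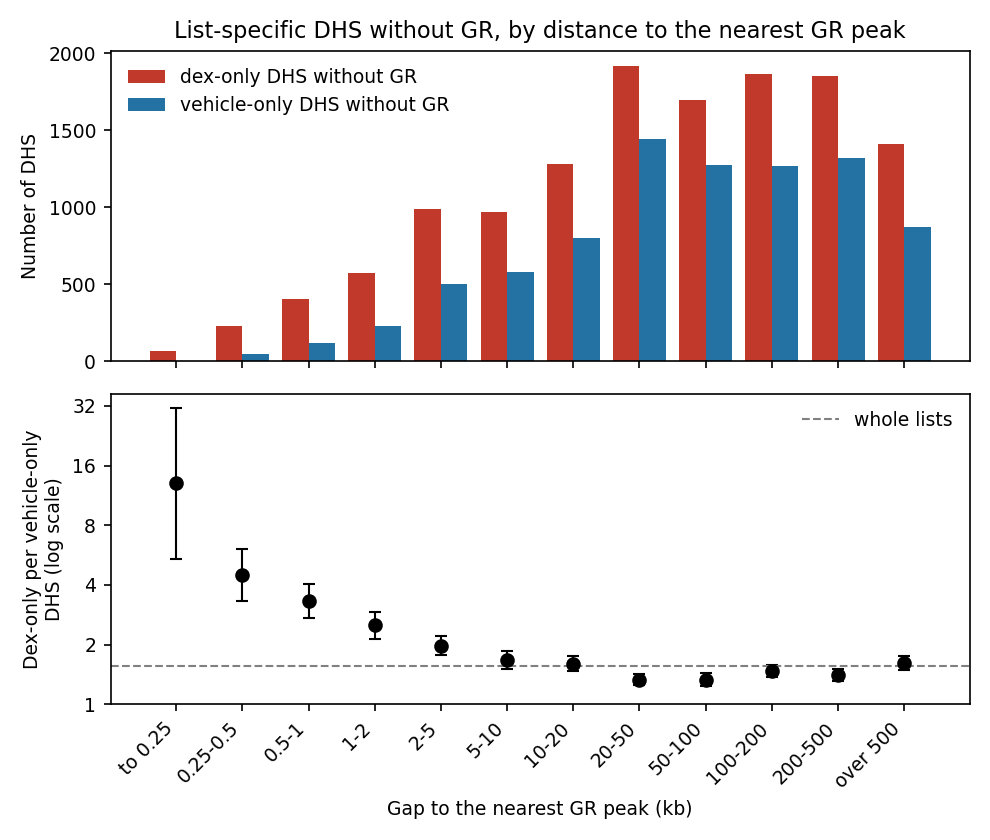
Number of GR-free dex-only and vehicle-only DHS (upper panel) and their ratio on a log scale with 95% counting intervals (lower panel) by gap to the nearest GR peak in kb. The ratio falls from 13 within 0.25 kb to 1.33 at 20 to 100 kb, and the dashed line is the ratio of the whole lists, 1.57.

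The GR peak next to a GR-free dex-only DHS lay in a shared DHS in most cases, but in a dex-only DHS more often than for the other classes. Of the 699 with GR within 1 kb, the nearest GR peak lay in a dex-only DHS for 161 (23.0%, 20.1 to 26.3), in a shared DHS for 514 (73.5%) and in no dexamethasone DHS for 24. For vehicle-only DHS the dex-only number was 10 of 178 (5.62%, 3.08 to 10.03), and for shared DHS without GR 224 of 1651 (13.6%, 12 to 15.3). Of all GR peaks, 15.6% lay in dex-only DHS. The lists that chose the regions also set the class of the DHS around a GR peak. These shares thus describe the choice and test nothing.

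The contrast with the mirror class was also seen at like distances to the nearest shared DHS, up to 100 kb. The nearest shared DHS held a GR peak for 2497 GR-free dex-only DHS (18.8%, 18.1 to 19.5) and for 1077 vehicle-only DHS (12.7%, 12.02 to 13.4), where 18.2% of all shared dexamethasone DHS and 18.03% of all shared vehicle DHS held one. Over all distances the GR-free dex-only DHS were thus near the share of all shared DHS, and the vehicle-only DHS below it. For regions within 1 kb of a shared DHS the shares were 25.9% and 12.8%, a difference of 13.1 points (10.8 to 15.4). The difference was 6.59 points (4.90 to 8.26) from 1 to 10 kb and 3.15 points (1.67 to 4.59) from 10 to 100 kb. Beyond 100 kb it was -0.551 points (-3.84 to 2.46), which did not exclude 0. Beside a GR-bound shared DHS within 1 kb there were 3.11 dex-only for each vehicle-only DHS, and beside a GR-free one 1.30. The lists that chose the regions also set which neighbours were shared and held GR, so these values are a description only. Shared DHS with GR were wider than those without (median 815 against 600 bp), and the part of width was not tested.

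C/EBPβ at these sites also varied with distance to GR. C/EBPβ of the dexamethasone list alone lay at 168 of 3232 GR-free dex-only DHS with GR within 10 kb (5.20%) and at 218 of 10030 further away (2.17%), a difference of 3.02 points (2.25 to 3.89). Of all dexamethasone DHS, 5.8% had it, so the share near GR was not above this value and the share further away was well below it. The odds ratio of near against further away was 2.47 (2.01 to 3.03). It was 2.17 (1.76 to 2.67) within width strata and 1.62 (1.31 to 2.01) with DHS above the median width. C/EBPβ of both lists was also more frequent near GR, at 7.49% and 5.15% (odds ratio 1.49, 1.27 to 1.74). It was so in vehicle-only DHS too, at 9.81% and 6.39% (1.59, 1.31 to 1.94), and the ratio of these odds ratios was 0.935 (0.727 to 1.20), an interval that included 1. In vehicle-only DHS, C/EBPβ of the vehicle list alone was found at 3.97% within 10 kb and 3.88% beyond, an odds ratio of 1.02 (0.767 to 1.36) whose interval included 1. The ratio of the 2 odds ratios (2.47 over 1.02) was 2.42 (1.70 to 3.44), and its interval stayed above 1 in each of the 8 alternatives, with the lowest value of 1.44 (1.01 to 2.06) for DHS above the median width. In shared DHS without GR, dexamethasone-only C/EBPβ was at 6.06% within 10 kb and 4.68% beyond, an odds ratio of 1.31 (1.19 to 1.45). Against that class the ratio of the odds ratios was 1.88 (1.49 to 2.36). These comparisons by distance were chosen after the values were seen.

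The share specific to 1 list among sites with C/EBPβ depends on C/EBPβ of both lists as well. Of GR-free dex-only DHS with a dexamethasone C/EBPβ peak, 37 of 78 (47.4%, 36.7 to 58.4) had no vehicle C/EBPβ peak when GR lay within 1 kb, against 60 of 237 (25.3%, 20.2 to 31.2) beyond 100 kb. Of GR-free vehicle-only DHS with a vehicle C/EBPβ peak, 3 of 20 (15.0%, 5.24 to 36.0) had no dexamethasone C/EBPβ peak within 1 kb, against 141 of 308 (45.8%, 40.3 to 51.4) beyond 100 kb. Over all vehicle-only DHS, however, C/EBPβ of the vehicle list alone was at 4.27% from 1 to 10 kb, 3.70% from 10 to 100 kb and 4.07% beyond, while C/EBPβ of both lists was at 9.85%, 7.94% and, from 100 kb to 1 Mb, 5.12%. The higher share far from GR in that class thus went with less C/EBPβ of both lists, not with more of the vehicle list alone. In GR-free dex-only DHS, C/EBPβ of the dexamethasone list alone was itself at 5.29% within 1 kb and 1.17% beyond 100 kb. In shared DHS without GR the share went from 21.1% (17.8 to 24.7) to 15.97% (14.8 to 17.2).

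**Figure D4:**
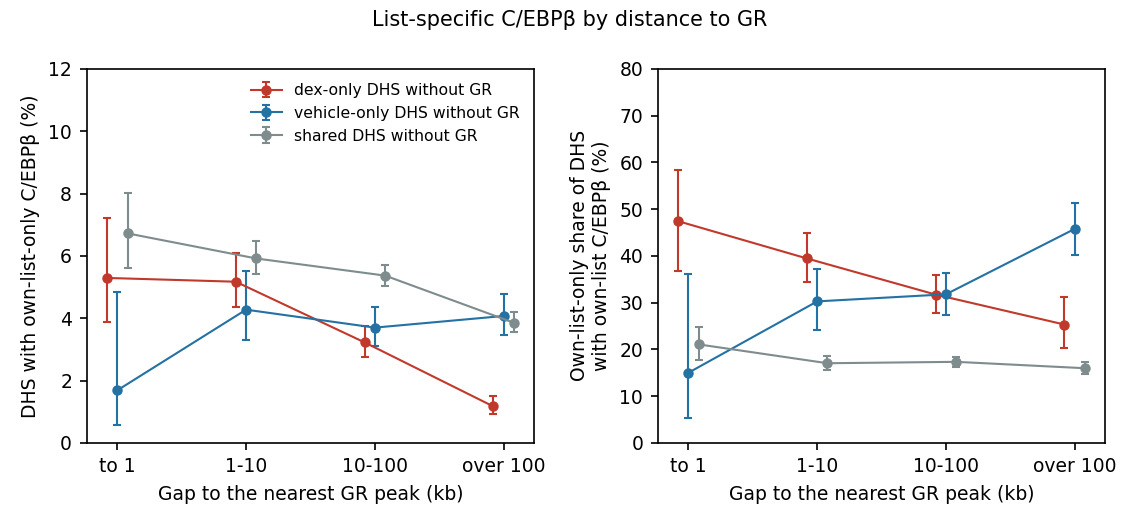
Share of all DHS with a C/EBPβ peak of their own list only (left, percent) and the same number as a share of DHS with any C/EBPβ peak of their own list (right, percent), by gap to the nearest GR peak in kb; bars are 95% Wilson intervals. For shared DHS the own list is the dexamethasone list. GR-free dex-only DHS go down from 47.4% to 25.3% in the right panel, and vehicle-only DHS go up from 15.0% (3 of 20) to 45.8%, while in the left panel they lie between 3.70% and 4.27% from 1 kb out.

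The widest regions lay near GR more often than the rest. Of the 92 regions over 1000 bp, 41 (44.6%, 34.8 to 54.7) had a GR peak within 10 kb. This compares with 24.2% (23.5 to 24.9) of the narrower ones and 23.6% of all dexamethasone DHS without GR. Whether wide DHS of other classes also lay nearer to GR was not tested. A dexamethasone C/EBPβ peak lay in 14 (15.2%, 9.29 to 23.9), against 8.57% of the narrower ones. In the widest decile of DHS, such a peak was at 15.96% of GR-free dex-only DHS and 46.0% of shared DHS without GR. The widest was chr8:96696191-96698918, 2727 bp long, 550 bp from a vehicle DHS and 724 bp from a GR peak, with 1 C/EBPβ peak of the dexamethasone list and 0 of the vehicle list. The next was chr11:7101943-7104288, 2345 bp long and 4252 bp from a GR peak, with the same C/EBPβ pattern. The 3 others among the 5 widest, chr17:65112690-65114940, chr14:41937693-41939909 and chr3:82836577-82838793, were 2250, 2216 and 2216 bp long, had no C/EBPβ peak in either list and lay 7160, 7936 and 4156 bp from GR. Each of the 5 widest thus lay within 10 kb of a GR peak.

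Wide regions with C/EBPβ after hormone alone were found with and without a GR neighbour. After the regions on chromosomes 8 and 11 above, the widest were chr5:52540712-52541847 (1135 bp), chr11:77604802-77605902 (1100 bp) and chr3:103585377-103586422 (1045 bp). The chromosome 5 region was 280974 bp from the nearest GR peak, and the other 2 were 3365 and 4855 bp away. The chromosome 11 region also held 2 dexamethasone C/EBPβ peaks. The other 4 regions named for 2 such peaks differed in their vehicle C/EBPβ. At chr5:9106789-9107968 there was 1 vehicle C/EBPβ peak and GR 581 bp away, and at chr7:107108732-107109570 there were 0 and GR 651 bp away. At chr10:94882287-94883429 and chr11:22388175-22389250 both lists had 2 C/EBPβ peaks, with GR 9591 and 49337 bp away.

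GR-free dex-only DHS were spread thinly over the genome with some groups. The median gap between neighbours of the class was 28463 bp, 7.89% had another within 1 kb and 29.8% within 10 kb. Vehicle-only DHS, which are fewer, had a median gap of 52330 bp. Joining regions up to 10 kb apart gave 10981 runs, of which 9226 held a single region and 39 held 5 or more. The nearest DHS of any kind in the dexamethasone list was another GR-free dex-only DHS for 27.2% of them, while the class made up 20.9% of that list, and a shared DHS without GR for 56.2%, against 62.4% of the list. The nearest DHS was thus of their own class more often than the make-up of the list. The lists that chose the regions also set the class of a neighbour, so this describes the choice and tests nothing.

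Of the 5 densest windows, 3 had neither GR nor C/EBPβ. The 100-kb window from 14900000 on chromosome 5 held 15 GR-free dex-only DHS among 20 dexamethasone DHS and 5 vehicle DHS, with 0 GR peaks and 0 C/EBPβ peaks in either list. The nearest GR peak to any of the 15 was 980025 bp away. Windows from 25400000 on chromosome 3 (10 regions) and 85200000 on chromosome 1 (9 regions) also had 0 GR and 0 C/EBPβ peaks, with the nearest GR peak 827630 and 378244 bp away. The longest run was chr3:25419796-25456311, with 10 regions, 13 shared DHS without GR and 3 vehicle-only DHS in 36515 bp. It was followed by chr1:85247246-85274689, with 8 regions in 27443 bp. The regions of these 3 windows all lay over 100 kb from any GR peak.

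The other 2 had GR peaks within them. The window from 138700000 on chromosome 4 held 9 regions, as many as that on chromosome 1, of which 1 had C/EBPβ, and 1 GR peak. The window from 70700000 on chromosome 14 held 8 regions, 5 GR peaks and 12 dexamethasone C/EBPβ peaks, and 2 of the 8 regions had C/EBPβ. The third run, chr2:71983061-71998523, held 7 regions in 15462 bp with 1 GR peak, 1005 bp from the nearest of them. Groups of GR-free dex-only DHS were thus found both in stretches without GR and around GR peaks.

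The share of these sites varied over the autosomes and was highest on the X chromosome. Among dexamethasone DHS without GR, it ranged from 22.4% (21.01 to 23.8, chromosome 11) to 27.2% (25.6 to 28.9, chromosome 3) over 19 autosomes. Their median was 24.96%, and the share was 29.6% (27.6 to 31.8) on X. Chromosomes 11 and 3 were picked as the lowest and highest of 19, so a gap between their intervals tests nothing. The interval of X overlapped that of chromosome 3. X exceeded the autosomes pooled by 4.67 points (2.58 to 6.84). The vehicle-only share of vehicle DHS without GR was 17.8% on X and 17.6% on the autosomes, a difference of 0.170 points (-1.69 to 2.18). The intervals of these 2 differences did not overlap, but the lists that chose the regions also give both, so they describe the choice. On X the regions were narrower (median 413 against 464 bp on autosomes), 3.15% (1.97 to 4.98) held a dexamethasone C/EBPβ peak against 8.87%, and 9.81% had GR within 10 kb against 24.99%. Shared DHS without GR on X also had less C/EBPβ (16.8% against 29.8%) and less GR within 10 kb (8.50% against 23.9%) than on autosomes. The part of width in the X excess was not tested.

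**Figure D5:**
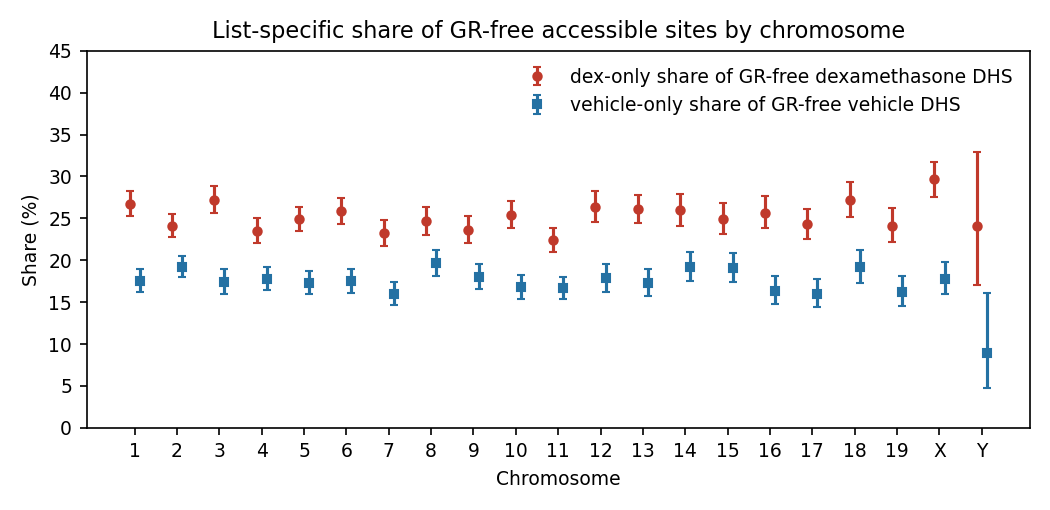
GR-free dex-only DHS as a share of dexamethasone DHS without GR (circles) and GR-free vehicle-only DHS as a share of vehicle DHS without GR (squares), in percent with 95% Wilson intervals, by chromosome. X has the highest circle (29.6%) and an average square (17.8%), and Y rests on few DHS.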

How the data were processed

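The authors deposited 5 lists of mm9 intervals, and their values are positions only (chromosome, start, end, running identifier), per the file headers. CASAVA 1.8 and mm9 are named in the submitters' processing notes. Not given in the sources used here: aligner, peak caller, threshold and any pooling of replicates. Intervals were treated as half-open, 3 duplicate rows were dropped, and positions are printed as deposited. Overlap meant at least 1 bp, and gaps are edge to edge. Regions on chromosomes without GR peaks (26 GR-free dex-only DHS) counted as having none near in the shares within 1, 10 and 100 kb. They were left out of the median gaps to GR and of the classes by distance to GR. The comparison of C/EBPβ within and beyond 10 kb left them out too.

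Shares have 95% Wilson intervals, differences Newcombe intervals and odds ratios Woolf or Mantel-Haenszel intervals over 10 width strata, and medians order-statistic intervals. They cover counting error only: neighbouring regions are not independent, and no p-value was computed. Chromosomes with under 20 regions in a class were left out of counts by chromosome. Named regions were the 5 widest, the 5 widest with C/EBPβ of the dexamethasone list alone, the 5 with most dexamethasone C/EBPβ peaks of any kind (ties by width), the 5 densest windows of 100 kb, the 3 longest runs and 3 regions on each side of the rule, without chromosome 18. The regions and comparisons were chosen with earlier results of these data known. Intervals for ratios of counts were converted from the Wilson interval of the share of the first count in both counts together. Counts of the regions, of those with C/EBPβ and of those with GR within 1 kb equalled those of bedtools 2.31.1. The code was tested on simulated lists with planted odds ratios. Tables were handled in pandas 2.3.3 and numpy 2.4.6 under Python 3.11.15, intervals came from scipy 1.17.1 and statsmodels 0.14.6, and plots from matplotlib 3.10.9. Alternatives changed the overlap rule, the interval widths, the DHS used and the chromosomes. A planned description of genes and sequence was not run, since no mm9 reference was used. The adenovirus, polymerase II and input samples were not analysed here.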

Additional observations from a re-analysis of the deposited data

How the results depend on the processing

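No paired analysis was possible because the lists hold no replicate columns; for the same reason no replicate could be left out. Of 204 values recomputed under the alternatives, 162 kept their direction and side of the threshold, stayed within the interval of the reported value or, for the number of regions, stayed within 1.5 times. The number of GR-free dex-only DHS was 6601 with DHS above the median width of their list. Their share of dexamethasone DHS was 21.7% with 50% of the shorter interval covered and with centres, 18.1% with intervals within 500 bp, 16.9% with the dexamethasone list shortened to the length of the vehicle list by leaving out its narrowest DHS (same length below), 23.5% with 300-bp intervals and 20.5% without the DHS of both recurring widths. The share with dexamethasone C/EBPβ was 9.35% (within 500 bp), 24.1% (above the median width), 10.2% (same length) and 9.81% (300 bp), and with vehicle C/EBPβ 6.98%, 19.4%, 7.10% and 7.42% in that order. Dropping narrow vehicle DHS turns shared DHS into dex-only ones, so the values above the median width describe other regions. C/EBPβ of the dexamethasone list alone was at 5.92% (above the median width) and 3.59% (same length). The odds ratio for it against shared DHS, with width strata, was 0.964 (within 500 bp) and 1.00 (above the median width). Against vehicle-only DHS, the odds ratio for C/EBPβ of the own list alone was 1.16 above the median width, with and without strata, and 0.882 with the same length. The overall ratio of dex-only to vehicle-only DHS was 0.907 with the same length. The odds ratio for vehicle-only C/EBPβ near GR in the mirror class, whose interval included 1 throughout, was 0.967 (50% covered), 0.967 (centres), 0.891 (same length), 0.786 (300 bp) and 0.957 (without fixed widths). Median width was 457 bp with 50% covered and with centres, 647 bp above the median width, 504 bp with the same length and 470 bp without fixed widths. The median gap to a vehicle DHS was 5509.5 bp (50% covered), 5508 bp (centres), 8229 bp (within 500 bp), 11229 bp (above the median width), 5704.5 bp (same length) and 4707 bp (300 bp). On autosomes alone the highest share by chromosome was 22.7% (28.2% with X). Regions with another of their class within 5 kb were 20.6%, and within 25 kb 47.0%. The cause of these changes was not tested. Unknown depth limits all shares: a site below the threshold of the vehicle list cannot be told from one that was closed.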

Other observations

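The intervals of fixed width differed in their surroundings. GR-free dex-only DHS of exactly 150 bp (367) lay a median of 236 bp from a vehicle DHS, and 5 of them (1.36%) held a dexamethasone C/EBPβ peak. Those of the single width just above 250 bp (448) lay a median of 10459 bp from a vehicle DHS, and 18 (4.02%) held one. In the mirror class the medians were 72 bp (186 DHS of 150 bp) and 5579 bp (211 DHS of the width above 250 bp). Both widths are given as they stand in the deposited lists, and how they arose was not tested.

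Windows outside the 5 named ones that held 8 GR-free dex-only DHS were both on the X chromosome, from 120700000 and 121200000. They were picked after their values were seen.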
